A study of Mus musculus with 15 samples.

Results

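The mRNAs of 8 tetraspanins, Cd9, Cd63, Cd81, Cd82, Cd151, Cd53, Cd37 and Tspan33, were followed in the RNA of circulating mouse extracellular vesicles (EVs). The 8 were chosen by gene symbol, as the vesicle surface markers Cd9, Cd63 and Cd81 together with other members of the family. Earlier results of these data were known when they were chosen. All 8 were among the 43472 gene symbols counted. Bulk RNA-seq had been performed on 15 libraries, of which 3 came from wild type (WT) mice, 6 from dystrophic mice and 6 from hypertrophic mice, and each sample held the pooled vesicles of 2 to 3 mice. The WT mice were C57BL/6. The dystrophic mice were Sgcb null, which lack β-sarcoglycan of the muscle membrane. The hypertrophic mice are MAGIC F1 in the sample labels, a line that carries an engineered activator of the Met receptor, whereas the study's methods name Mstn-null mice, which lack myostatin, for these libraries. The genotype of this group is therefore uncertain and only its condition was used. The labels name no agent given to any group. According to the methods, mice were 3 to 6 months old and the vesicles came from plasma, while the labels give serum. The RNA was amplified before library preparation.

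Tetraspanins are small proteins that cross the membrane several times and gather partner proteins, such as integrins and metalloproteases, into membrane microdomains. CD9, CD63 and CD81 are the proteins most often used to recognise EVs, CD63 being typical of late endosomes and CD9 and CD81 of the plasma membrane. In blood, CD9 and CD151 are carried by platelets, while CD37 and CD53 are found mainly on leukocytes. All values here are reads of mRNA and do not measure the proteins on the vesicles. In a bulk sample, fewer vesicles from a cell type and less of an mRNA per vesicle cannot be told apart.

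The libraries differed widely in content. Between 27227 and 32563362 reads were counted on genes, and between 797 and 8968 genes had at least 1 read, so values are given as CPM, the counts of a gene scaled to 1000000 reads on genes. A count of 0 allows up to 3 reads, which is between 0.0921 and 110 CPM depending on the library. Such limits and all intervals on counts cover counting error only, since copies made by amplification are not independent molecules. Sgcb had reads in 1 library only, hypertrophic replicate 3 with 695 reads (365 CPM), and in no WT library, so its absence from the dystrophic libraries does not check their labels. Mstn had no read in any library. The number in a sample's title did not match that of its counts in 6 libraries, namely replicates 4 to 6 of the dystrophic and 1 to 3 of the hypertrophic condition, whose numbers were crossed with each other. Hypertrophic replicate 3 is one of these 6, and an exchange of the numbers would make it an Sgcb null library with 695 Sgcb reads. Whether the null allele leaves RNA that is counted on Sgcb is not given in the sources used here. The title numbers also form a lower series, made of all WT libraries and of replicates 1 to 3 of each mutant condition, and a higher series with the other 6 libraries. What the series stand for is not stated, and results are also given within them or with the crossed numbers exchanged where this bears on a value. Of 8 platelet markers, all were detected and 3 (Pf4, Ppbp and Gp9) had reads in all 15 libraries. All 6 erythroid and all 10 leukocyte markers were detected as well, 4 and 3 of them in all 15 libraries. Of 6 skeletal muscle markers, 5 were detected, in 1 to 8 libraries each, and Myh4 was at 0 throughout.

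Cd9 was the only member with reads in every library. Its mRNA ranked between 3 and 19 among all genes of a library, with a median rank of 9, and made up 0.392% to 3.34% of the reads on genes. Of the 13281 genes with a read in any library, 169 (1.27%) had reads in all 15. The Cd9 gene (ENSMUSG00000030342.8) lies on chr6:125460266-125494791, minus strand, of mm10. In the WT libraries, Cd9 stood at 16638, 12034 and 7568 CPM. In the dystrophic libraries, it stood at 6460, 3924, 5007, 9769, 7678 and 14516 CPM in replicates 1 to 6. In the hypertrophic libraries, it stood at 21966, 13187, 33354, 12742, 5783 and 12440 CPM in replicates 1 to 6. Hypertrophic replicates 3 and 1 were the highest of all libraries and dystrophic replicates 2 and 3 the lowest, and the 3 conditions overlapped. The shallowest library, WT replicate 1, still held 453 Cd9 reads, a share of 1.66% with a 95% Wilson interval of 1.52% to 1.82%.

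**Figure D1:**
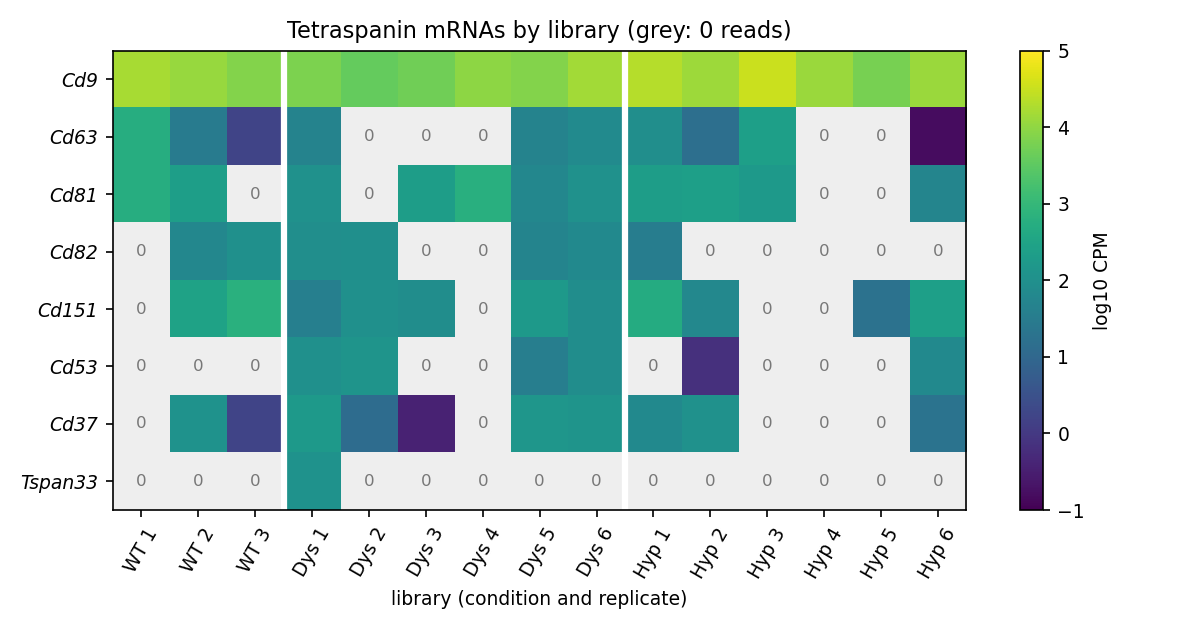
Level of each of the 8 tetraspanin mRNAs (rows) in each of the 15 libraries (columns, grouped as WT, dystrophic and hypertrophic), coloured by log10 CPM, with libraries without a read in grey and marked 0. Cd9 is filled in all 15 libraries and Tspan33 in 1, and hypertrophic replicate 4 holds reads of Cd9 alone.

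Cd9 carried nearly all reads of these 8 genes. Its share of their reads ran from 90.9% to 94.4% in WT-derived, from 90.5% to 96.3% in dystrophic-derived and from 96.0% to 100% in hypertrophic-derived libraries. Per length, as CPM per kilobase of exonic sequence, the median level of Cd9 over the 15 libraries was 5888, against 37.7 for Cd81, 31.6 for Cd151, 4.12 for Cd63 and 3.81 for Cd37, and the medians of Cd82, Cd53 and Tspan33 were 0. In the 14 libraries that held a second member, Cd9 per kilobase was 15.7 to 425 times the next one, with a median of 58.8 times. The ratio of 425 rested on 6 reads of Cd151 in hypertrophic replicate 5. The next member was Cd151 in 6 libraries, Cd81 in 4, Cd53 in 3 and Cd63 in 1. The levels per kilobase of the members other than Cd9 overlapped one another across libraries, so that their order below Cd9 was not the same from library to library.

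The first comparison asked whether Cd9 differed between conditions. Cd9 averaged 12080 ± 4535 CPM in the WT libraries (SD, n = 3). The dystrophic libraries averaged 7892 ± 3836 CPM (SD, n = 6), and the hypertrophic libraries 16579 ± 9699 CPM (SD, n = 6). The geometric mean of hypertrophic-derived EVs was 2.0 times that of dystrophic-derived EVs, a difference of 1.0 on the log2 scale, with p = 0.0519 in an exact two-sided permutation test and 0.156 after adjustment over the 3 pairs of conditions. Dystrophic-derived EVs differed from WT by -0.68 on that scale (exact permutation p = 0.214, adjusted 0.321), and hypertrophic-derived EVs from WT by 0.32 (exact permutation p = 0.571, adjusted 0.571). None of the 3 differences was larger than the spread between libraries allows at an adjusted p under 0.05. The comparisons share their groups and are not independent. Nothing states that the libraries of a condition came from separate groups of mice. The mice that the methods list per genotype for plasma are fewer than 6 separate pools of 2 to 3 mice would need. The p-values measure the spread between these libraries.

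In edgeR, fitted over 6887 genes and all 15 libraries, the log2 fold change of Cd9 was 0.70 with a standard error of 0.34 for hypertrophic against dystrophic (edgeR adjusted p = 0.338). It was -0.39 with a standard error of 0.41 for dystrophic against WT (adjusted p = 0.792) and 0.31 with a standard error of 0.42 for hypertrophic against WT (adjusted p = 0.882).

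The contrast between hypertrophic and dystrophic was not alike in the series of title numbers. In the lower series, the hypertrophic libraries stood at 13187 to 33354 CPM and the dystrophic ones at 3924 to 6460 CPM, without overlap, a difference of 2.08 on the log2 scale (exact permutation p = 0.1, the smallest that 3 against 3 libraries can give). In the higher series, the difference was -0.083, with 5783 to 12742 CPM against 7678 to 14516 CPM (exact permutation p = 0.8). With the 6 crossed numbers exchanged between the conditions, it was -0.049 over all 12 libraries (exact permutation p = 0.916). In the 9 libraries with matching numbers, it was 0.95, a ratio of 1.93 (exact permutation p = 0.2). The Cd9 values of the lower series also did not overlap between dystrophic and WT, at -1.19 (exact permutation p = 0.1). Cd9 was the single member of the 7 tested by edgeR to separate so in either comparison, while 6.91% of the genes tested did so for hypertrophic against dystrophic and 5.43% for dystrophic against WT. For hypertrophic against WT, 0 of the 7 members and 3.96% of the genes did. The difference between the series was not tested. The hypertrophic libraries of the lower series are those with crossed numbers, so that the series and the crossed numbers cannot be told apart there. With each of the 12 libraries left out in turn, the difference ran from 0.76 to 1.26 (unadjusted exact permutation p from 0.0173 to 0.104). Only 2 of these p-values were under 0.05. They came from leaving out hypertrophic replicate 5 or dystrophic replicate 6, with differences of 1.26 and 1.20 (unadjusted exact permutation p = 0.0173 and 0.0260).

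**Figure D2:**
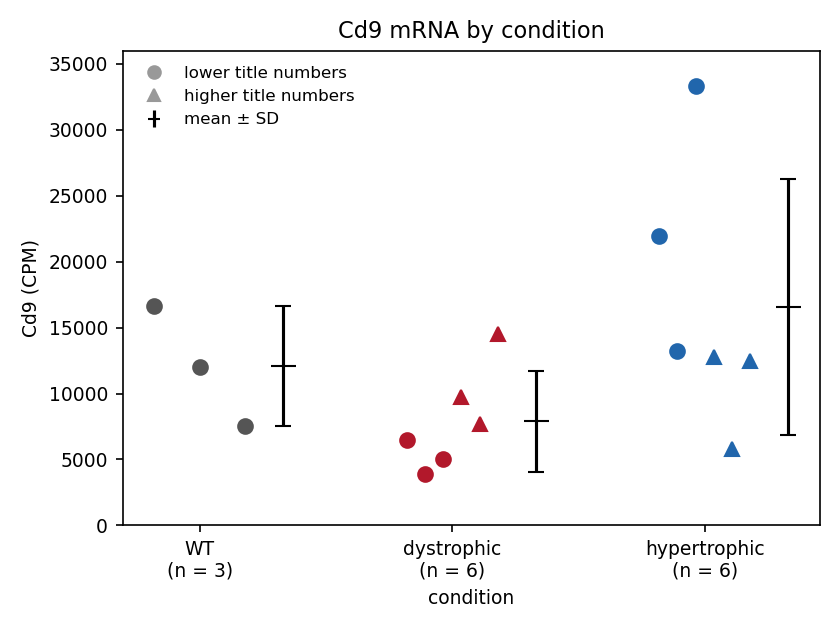
Cd9 level in CPM (linear axis from 0) in each library, by condition, with circles for libraries of the lower and triangles for those of the higher series of title numbers, and with the mean ± SD beside them (WT n = 3, dystrophic n = 6, hypertrophic n = 6). Circles of the hypertrophic and dystrophic conditions do not overlap, while the triangles do.

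The levels of blood cell markers are given beside those of Cd9. The summed level of the 8 platelet markers was 20035 to 31660 CPM in WT-derived, 9679 to 21828 CPM in dystrophic-derived and 15217 to 34474 CPM in hypertrophic-derived libraries, and its median, like that of Cd9, was lowest in the dystrophic libraries. Across the 15 libraries, Spearman's correlation between Cd9 and this sum was 0.68, a description over libraries that share depth and base of normalization. Pf4 and Ppbp were the highest of the 8 platelet markers on average in all 3 conditions. By edgeR, 6 of the 8 were lower and 2 higher in dystrophic than in WT. In hypertrophic against dystrophic, 5 were higher and 3 lower, and 0 were called in either comparison. The correlation of Cd9 was 0.06 with the leukocyte sum, -0.20 with the erythroid sum and 0.00 with the number of genes detected. The erythroid sum was 17072 to 66625 CPM in WT, 41038 to 117386 CPM in dystrophic and 25627 to 69216 CPM in hypertrophic libraries, with the highest median in dystrophic libraries. The liver markers are given in the same way. Their summed level, over 4 genes that were all detected but in no more than 7 libraries each, was 0 to 6.65 CPM in WT, 0 to 156 CPM in dystrophic and 0 to 1275 CPM in hypertrophic libraries. Of 3 liver markers tested by edgeR, 2 were higher in hypertrophic than in dystrophic at an unadjusted p under 0.05 and 0 were called (smallest adjusted p = 0.123). Of all 6887 genes tested, 823 had an unadjusted edgeR p under 0.05 in this comparison, 39 of them higher in hypertrophic. The 4 liver markers were Alb, Apoa1, Ttr and Serpina1a, and all but Alb had no read in any dystrophic library. In hypertrophic replicates 1 to 6, their sum was 0, 416, 394, 255, 1275 and 864 CPM. Its correlation with Cd9 was not computed. The part of platelet, erythroid and liver RNA in the level of Cd9 was not tested.

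**Figure D3:**
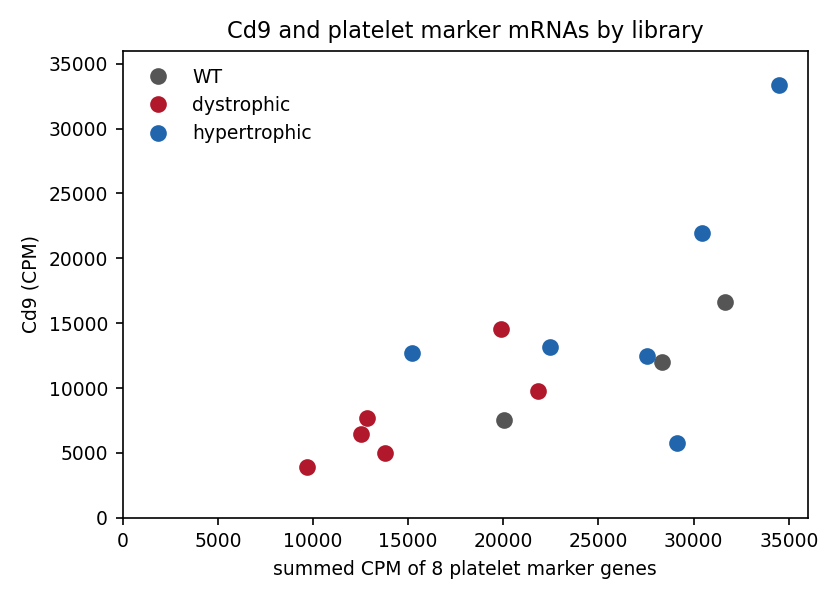
Cd9 level (vertical axis, CPM) against the summed level of 8 platelet marker genes (horizontal axis, CPM) in each library, coloured by condition. Spearman's correlation over the 15 libraries was 0.68, and the dystrophic libraries lie at 9679 to 21828 CPM of platelet markers.

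Among 2271 genes that had reads in at least 8 libraries and passed the filter of edgeR, those most like Cd9 across the 15 libraries were Mctp1 (correlation 0.89), Nrgn (correlation 0.88) and Odc1 (correlation 0.86). Nrgn, which encodes neurogranin, and Odc1, which encodes ornithine decarboxylase, had reads in all 15 libraries.

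Cd63 encodes the tetraspanin of late endosomes, lysosomes and platelet dense granules and lies on chr10:128900989-128912822 (plus strand; ENSMUSG00000025351.14). It had reads in 3 of 3 WT, 3 of 6 dystrophic and 4 of 6 hypertrophic libraries. The WT libraries held 551, 31.7 and 1.66 CPM, of which the first was 15 reads and the last 1 read. The dystrophic libraries held 49.5, 0, 0, 0, 47.4 and 73.9 CPM, and the hypertrophic ones 93.2, 15.2, 239, 0, 0 and 0.155 CPM, the last again 1 read. Both mutant conditions held libraries without a read, and the 3 conditions overlapped. In the lower series, all 3 hypertrophic libraries and 1 of 3 dystrophic libraries had reads, and in the higher series 1 and 2. Egfl7 (correlation 0.93), Mapk6 (correlation 0.83) and Rab11a (correlation 0.83) had the patterns most like it, and Spearman's correlation between Cd63 and Cd9 was 0.70.

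Cd81, which encodes a widely expressed tetraspanin and common marker of EVs, lies on chr7:143052739-143067934 (plus strand; ENSMUSG00000037706.17). It was counted in 2 of 3 WT, 5 of 6 dystrophic and 4 of 6 hypertrophic libraries. The WT libraries held 551 (15 reads), 225 and 0 CPM. The dystrophic libraries held 108, 0, 218, 596, 58.5 and 109 CPM. The hypertrophic libraries held 221, 238, 180, 0, 0 and 53.7 CPM. Dystrophic replicate 4, in which only Cd9 and Cd81 of the 8 members had reads, was the highest for Cd81, and the conditions overlapped. Its closest genes were Cald1 (correlation 0.82), Uba7 (correlation 0.80) and Gng11 (correlation 0.77).

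The 3 vesicle markers were thus counted unequally. Reads of all 3 were present in 9 libraries, and hypertrophic replicates 4 and 5 and dystrophic replicate 2 held Cd9 without Cd63 or Cd81. At the median level of Cd63 where it was counted, the 5 libraries without it would have held 15.9 to 130 reads, and at that of Cd81 the 4 libraries without it would have held 71.7 to 471 reads.

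Cd151 binds laminin-binding integrins and lies on chr7:141467392-141471473 (plus strand; ENSMUSG00000025510.14). It had reads in 2 of 3 WT, 5 of 6 dystrophic and 4 of 6 hypertrophic libraries. The WT libraries held 0, 283 and 648 CPM. The dystrophic libraries held 38.4, 101, 88.8, 0, 170 and 86.6 CPM, and the hypertrophic ones 486, 62.9, 0, 0, 18.3 (6 reads) and 247 CPM. The highest value was in WT replicate 3, and both mutant conditions overlapped WT, which spanned 0 to 648 CPM. Zdhhc20 (correlation 0.89), Herpud2 (correlation 0.87) and Lin7c (correlation 0.87) were most like Cd151.

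Cd82, known as a metastasis suppressor that is also found on muscle stem cells, lies on chr2:93419111-93463140 (minus strand; ENSMUSG00000027215.13). It was counted in 2 of 3 WT, 4 of 6 dystrophic and 1 of 6 hypertrophic libraries. Its levels were 0, 60.1 and 101 CPM in WT and 91.4, 95.4, 0, 0, 52.3 and 70.1 CPM in dystrophic replicates 1 to 6. In hypertrophic libraries it was found only in replicate 1, at 35.2 CPM, which was below every other value above 0. The difference in libraries with reads was not significant, with an unadjusted p of 0.226 against WT and 0.242 against dystrophic in Fisher's exact test (adjusted p = 1 over all genes in both).

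Cd53 and Cd37 are tetraspanins of leukocytes, Cd37 being most typical of B cells. Cd53 lies on chr3:106759921-106790149 (minus strand; ENSMUSG00000040747.9) and had no read in the 3 WT libraries. In the dystrophic libraries, it stood at 104, 127, 0, 0, 37.0 and 86.3 CPM. In the hypertrophic ones, it had reads in replicate 2 (0.690 CPM, 4 reads) and replicate 6 (68.6 CPM). A count of 0 allows 3 reads in the WT group. Pooled over all reads of a group, Cd53 stood at least 214-fold above this limit in dystrophic and at least 62.1-fold in hypertrophic. These bounds cover counting error only and not the differences between libraries, as dystrophic replicates 3 and 4 were at 0 too. Dystrophic replicate 6 held 2809 of the 3312 dystrophic Cd53 reads, and the bound without it was not computed. Without WT replicate 2, which holds most WT reads, these bounds were 16.1-fold and 4.67-fold. Without hypertrophic replicate 6, the hypertrophic libraries held 4 Cd53 reads in all, below the WT limit, and no fold can be given. The spread between libraries did not allow a call. The difference in libraries with reads between dystrophic and WT, 4 of 6 against 0 of 3, had an unadjusted p of 0.167 in Fisher's exact test (adjusted p = 1), and edgeR gave an adjusted p of 0.433 for dystrophic and 0.430 for hypertrophic against WT.

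Cd37 lies on chr7:45233632-45239115 (minus strand; ENSMUSG00000030798.15) and was counted in 2 of 3 WT, 5 of 6 dystrophic and 3 of 6 hypertrophic libraries. The WT libraries held 0, 116 and 1.66 CPM (1 read). The dystrophic libraries held 172, 13.4, 0.373 (1 read), 0, 142 and 126 CPM, and the hypertrophic ones 68.9, 107, 0, 0, 0 and 19.2 CPM. All 3 conditions reached over 100 CPM in at least 1 library. The summed level of the 10 leukocyte markers stayed within 1947 to 3820 CPM in WT, 2264 to 5025 CPM in dystrophic and 2431 to 5424 CPM in hypertrophic libraries, and its Spearman's correlation was -0.59 with Cd37 and -0.39 with Cd53. The leukocyte sum was thus present in libraries in which both genes were at 0. The sum mixes markers of several leukocyte types, with Lyz2 the highest on average in all 3 conditions. The B cell markers in it, Cd79a and Cd79b, were not compared with Cd37 on their own. The genes most like Cd37 were Prkcdbp (correlation 0.94), the tetraspanin Tspan13 (correlation 0.92) and Ccnd1 (correlation 0.91), each with reads in 8 libraries.

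Tspan33, which belongs to the tetraspanins that guide the metalloprotease ADAM10 and is known from erythroid and B cells, lies on chr6:29694222-29718559 (plus strand; ENSMUSG00000001763.14). It had 134 reads in dystrophic replicate 1, or 114 CPM, and no read in the other 14 libraries. Of all genes detected, 3164 (23.8%) had reads in exactly 1 library.

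How many members had reads varied between the libraries of each condition. The number of the 8 with reads was 3, 6 and 5 in the WT libraries, 8, 5, 4, 2, 7 and 7 in the dystrophic ones and 6, 6, 3, 1, 2 and 6 in the hypertrophic ones. It was higher in libraries with more genes detected, with a Spearman's correlation of 0.94 over the 15 libraries, given as a description because both come from the same reads. Dystrophic replicate 1, with 1170610 reads and 6567 genes, held all 8 members, while hypertrophic replicate 4, with 451013 reads and 1373 genes, held Cd9 alone. The correlation with the number of genes detected was 0.94 for Cd37 and 0.73 for Cd53, against 0.27 for Cd63 and -0.10 for Cd81.

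**Figure D4:**
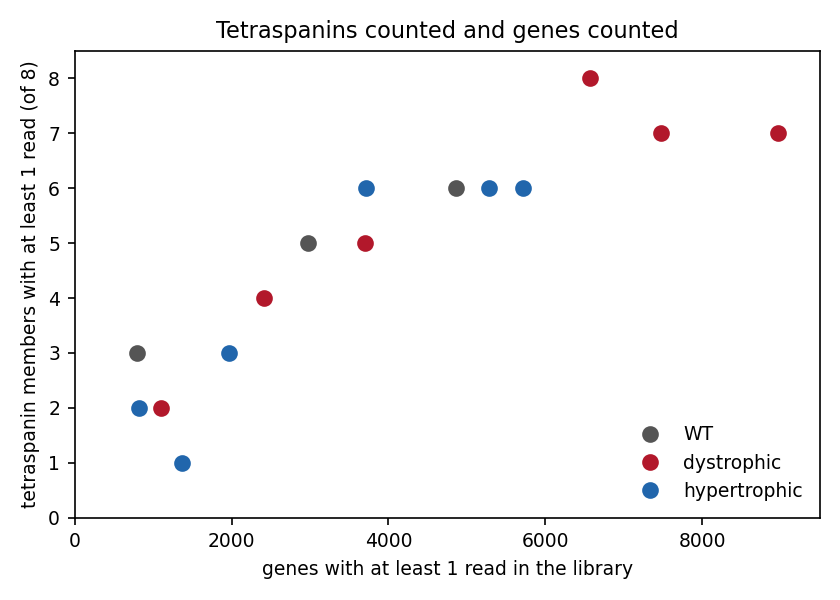
Number of the 8 tetraspanins with at least 1 read (vertical axis) against the genes counted at least once (horizontal axis) in each library, coloured by condition. Dystrophic replicate 1 holds 8 members at 6567 genes and hypertrophic replicate 4 holds 1 member at 1373 genes.

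The libraries with reads were nested for some members. The 10 libraries with Cd37 were all among the 11 with Cd151, and the 7 libraries with Cd82 and the 6 with Cd53 were all among the 10 with Cd37. Thus every library with Cd82, Cd53 or Tspan33 also held Cd37 and Cd151. For Cd82 this rested on 1 read of Cd37 in WT replicate 3, which held 61 reads of Cd82. The only library with Tspan33 held all 8 members, so its place was given beforehand. How often other genes are nested in this way was not tested. Cd63 and Cd81 did not follow this order. WT replicate 1, dystrophic replicate 4 and hypertrophic replicate 3 held Cd81 without Cd151, and dystrophic replicate 2 held Cd82, Cd151, Cd53 and Cd37 without Cd63 or Cd81. The 8 members had 8 distinct sets of libraries.

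Many zeros fell in libraries deep enough to hold reads at the median level of the member where it was counted. That median leaves out the zeros, and copies made by amplification are not independent molecules. The read numbers below therefore do not show why the zeros arose. For the 6 members from Cd63 to Cd37, 35 pairs of member and library had no read. At the member's median CPM where it was counted, these would have held 1.91 to 599 reads, with a median of 105, and 31 of the 35 would have held over 10 reads. The levels where a member was counted also reached down to single reads, with 1 read of Cd63 in WT replicate 3 and in hypertrophic replicate 6, and 1 read of Cd37 in WT replicate 3 and in dystrophic replicate 3.

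Against the other genes, most members were counted in many libraries. The median gene had reads in 3 libraries, and 9.68% of genes had them in at least 10, a number reached by 5 of the 8 members (Cd9, Cd81, Cd151, Cd63 and Cd37). The members were chosen with earlier results of these data known, so this says nothing about the family. The 23 other tetraspanins, 6 of them without a read, had reads in a median of 1 library. Fisher's exact test of libraries with reads, run over all 13281 genes, called 0 of the 8 members in each comparison. Over all genes it called 0% in dystrophic against WT, 0% in hypertrophic against WT and 0% in hypertrophic against dystrophic, with 75, 18 and 25 genes at an unadjusted p under 0.05. The smallest p that the design allows was 0.0119 in the comparisons with WT and 0.00216 between the mutant conditions, and no gene could therefore pass the adjustment on its own.

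The level of 7 members could be tested with edgeR, Tspan33 having been removed by the filter on low counts. No member was called in any comparison, while 0.0145% of the genes tested were called in dystrophic against WT (1 gene), 0.029% in hypertrophic against WT (2 genes) and 0.0145% in hypertrophic against dystrophic (1 gene). At an unadjusted p under 0.05, there were 0, 0 and 1 members, the last being Cd9, against 139, 552 and 823 of all genes tested. DESeq2 called 0 of these 7 as well. The median log2 fold change of the 7 members was -0.25 in dystrophic against WT, -0.85 in hypertrophic against WT and -0.60 in hypertrophic against dystrophic, and those of all genes tested were 1.38, 0.66 and -0.52. The first and second medians of the 7 members are the same with Cd53 set at its lower bound. The medians of all genes against WT depended on single WT libraries. Without WT replicate 1, 2 or 3, that of dystrophic against WT was 2.08, 8.15 or 5.18. That of hypertrophic against WT was then 0.29, 5.96 or 0.81. The median of the members was not computed in these settings, so no rank of the members among all genes is drawn.

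For members other than Cd9, the intervals were too wide to set a size. The standard error of the log2 fold change was 2.26 for Cd81, 2.90 for Cd63 and 3.19 for Cd82 in dystrophic against WT. The 95% interval of Cd81 in that comparison ran from -4.68 to 4.18, and that of Cd82 in hypertrophic against dystrophic from -9.11 to 2.22. For Cd9, it ran from 0.03 to 1.37 in hypertrophic against dystrophic. The biological coefficient of variation over all genes was 3.04.

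Other genes of the family were counted as well. Of 23 further tetraspanins, 17 had a read in any library and 5 had reads in at least 8. These were Tspan17 in 12 libraries (up to 240 CPM), Tspan2 in 10 (up to 848 CPM), Tspan9 in 9 (up to 548 CPM), Tspan14 in 9 (up to 223 CPM) and Tspan13 in 8 (up to 206 CPM). Tspan1, Tspan10, Tspan12, Tspan15, Upk1a and Prph2 had none in any library. In edgeR, 6 of the 23 were tested and 0 were called per comparison, with 0, 0 and 1 having an unadjusted p under 0.05. Tspan9 is known from platelets. Tspan2 stood at a mean of 124 CPM in WT, 73.3 CPM in dystrophic and 343 CPM in hypertrophic libraries, with log2 fold changes of -0.83, 0.80 and 1.62 and standard errors of 2.13, 2.26 and 1.83 (edgeR adjusted p = 1, 1 and 0.9998).

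**Figure D5:**
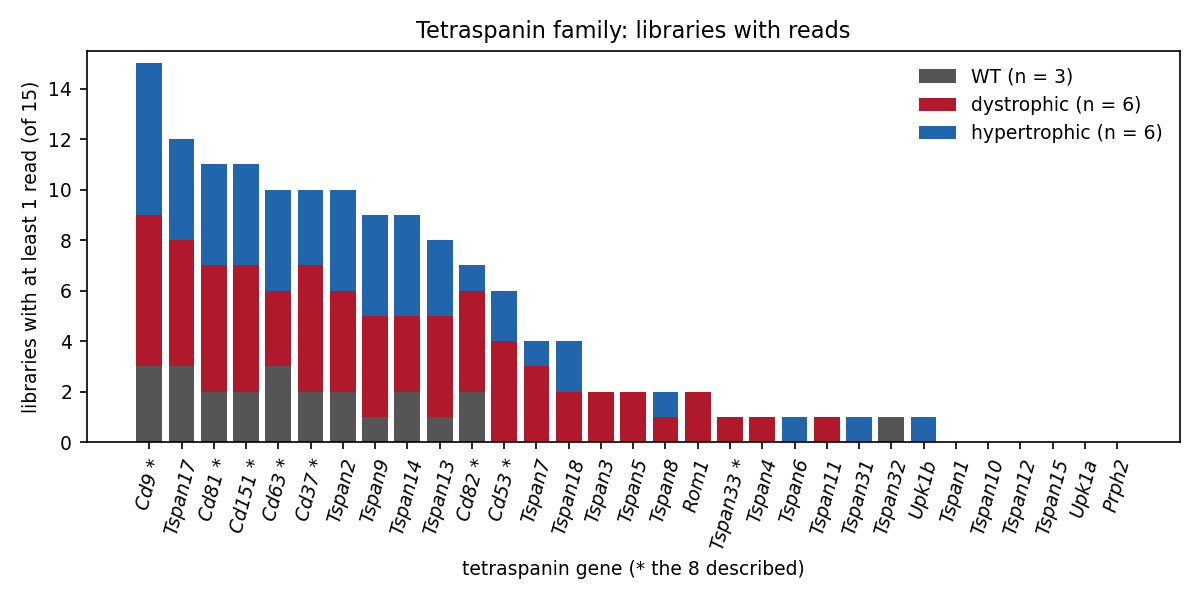
Number of libraries with at least 1 read (vertical axis, of 15) for each of 31 tetraspanin genes (horizontal axis, asterisks mark the 8 described), stacked by condition (WT n = 3, dystrophic n = 6, hypertrophic n = 6). Cd9 reaches 15 libraries, Tspan17 reaches 12 and 6 genes have none.

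Of 18 genes for proteins that bind tetraspanins, 15 were detected. Sdcbp, which encodes the EV adaptor syntenin, had reads in 14 libraries, the platelet integrin subunits Itga2b and Itgb3 in 13 and 12, and the platelet collagen receptor Gp6 in 12. Itga3, Epcam and Kit had none, and Ptgfrn and Igsf8, which encode direct partners of CD9 and CD81, had reads in 2 and 1 libraries. edgeR tested 11 of the 18 and called 0 per comparison (0, 0 and 0 by unadjusted p under 0.05).

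All 16 genes for further EV proteins were detected, with Flot1, Anxa2 and Hspa8 in 13 libraries and Chmp4b and Lamp1 in 12, and Icam1 in 2. edgeR tested 15 and called 0 per comparison (0, 0 and 2 by unadjusted p under 0.05). The mRNAs of proteins used as negative markers of EVs were counted too. Golga2 and Canx had reads in 8 libraries, Hsp90aa1 in 9 and Hsp90ab1 in 13, against 10 for Cd63 and 11 for Cd81. Their levels were not alike, with medians of 3.04, 1.66, 51.5 and 1083 CPM, against 15.2 CPM for Cd63 and 109 CPM for Cd81. edgeR tested the 4 genes of negative markers and called 0 per comparison (0, 0 and 0 by unadjusted p under 0.05).

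Exons of 4 members overlap a gene on the opposite strand, by 218 bases for Cd9 (Gm26728), 104 for Cd81 (R74862), 193 for Cd151 (Gm10575) and 13 for Cd37 (Tead2). Whether strand was used in counting is not given in the sources used here, and reads in these stretches cannot be assigned. Gm26728 and R74862 had no read, Gm10575 had 60 reads in 1 library and Tead2 had 282 reads in 2. The pseudogenes Cd9-ps and Cd63-ps, which may share reads with their parent genes, held 20 reads in 8 libraries and 1 read in 1 library.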

How the data were processed

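According to the methods, EV RNA was preamplified, made into libraries with a TruSeq kit and sequenced as single reads. The authors aligned the reads to mm10 and deposited raw counts, unnormalized numbers of reads for each gene symbol and library. The processing notes of the submitters name TopHat, HTSeq and DESeq. Library kit and sequencer differ between labels and methods. Each table ends in 5 summary lines that name no gene and hold 57.9% to 99.2% of its numbers, and neither library sizes nor tests included them.

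CPM were computed from the counts over all gene rows. Depth was 27227 to 32563362 reads on genes. Levels were tested with edgeR 4.0.16 in R 4.3.3 (TMM, filterByExpr, quasi-likelihood test over all 15 libraries, Benjamini-Hochberg adjusted p under 0.05), with standard errors taken from the F statistic. Libraries with at least 1 read were compared by two-sided Fisher's exact tests over 13281 genes, and Cd9 by exact two-sided permutation tests of mean log2 CPM (scipy 1.17.1). The edgeR and Fisher procedures and the permutation test of log2(CPM + 1) were run on simulated data. The counts simulated for edgeR and that permutation test varied far less between libraries than these data. They therefore do not show how the tests perform here. The permutation test used for Cd9 was not simulated. Positions come from GENCODE M21, which lists all 31 tetraspanins, and levels per length use its union of exons.

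Groups came from the sample labels. Replicate numbers only name libraries. Alternatives were DESeq2 1.42.0, other normalizations and filters, only the conditions compared, title series as covariate, crossed numbers exchanged, only the 9 libraries with matching numbers, no mitochondrial and hemoglobin genes, a permutation test of log2(CPM + 1), minimums of 5 and 10 reads, libraries sampled down to 27227 reads, and each library left out. The values of Cd9 within each title series and the bounds of Cd53 without single libraries were added after the data were seen. Members and lists were chosen with earlier results of these data known. All 8 members are named. Other tetraspanins are named from 8 libraries with reads, and listed partner and EV genes could be named from 12 or up to 3 (not all were), with Golga2, Canx, Hsp90aa1 and the marker genes named outside that rule after their values were seen. The 3 genes of highest Spearman's correlation are named for members with reads in at least 8 libraries. Protein sequences were not used here.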

Additional observations from a re-analysis of the deposited data

Results flagged for a closer look

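In 4 of 15 groups of 6 libraries, 1 library stood apart from the others of its condition by Dixon's criterion (a gap over 0.625 of the range). Chance flags about 1 in 20 such groups, and groups that are mostly at 0 are flagged easily. Cd81 in dystrophic replicate 4 was at 596 CPM, against 0 to 218 CPM in the other dystrophic libraries. Cd82 in hypertrophic replicate 1 was at 35.2 CPM, against 0 in the other hypertrophic libraries. Cd53 in hypertrophic replicate 6 was at 68.6 CPM, against 0 to 0.690 CPM. Tspan33 in dystrophic replicate 1 was at 114 CPM, against 0. Without dystrophic replicate 4, the log2 fold change of Cd81 for hypertrophic against dystrophic was 0.24 in place of -0.60, neither of them called.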

How the results depend on the processing

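No paired analysis was possible because the labels give no replicate numbers. No member was called by edgeR or DESeq2 under any alternative. Fisher's exact test called 0 genes throughout, a count that its smallest possible p likewise makes likely by design. Over all genes, the calls of edgeR were few and varied. For dystrophic against WT, hypertrophic against WT and hypertrophic against dystrophic they were 1, 2 and 1. DESeq2 on all genes with a read called 1080, 1084 and 488, with 4911, 6021 and 6725 adjusted p-values missing. The counts were 0, 0 and 0 with no filter, without mitochondrial and hemoglobin genes, and in the permutation test, whose smallest possible p (0.0238 against WT, 0.00216 between mutant conditions) makes a call over 6887 genes unlikely by design, so that its 0 says nothing about stability. They were 3 for dystrophic against WT without TMM and with the 9 matching libraries, and 2 with the crossed numbers exchanged, while the last 2 settings gave 0 for hypertrophic against dystrophic. With each library left out, they were 1 to 2, 1 to 3 and 0 to 2. The causes were not tested. Without TMM, the median log2 fold change of all genes went from 1.38, 0.66 and -0.52 to 1.57, 1.02 and -0.37, and that of Cd9 from -0.39, 0.31 and 0.70 to -0.60, 0.47 and 1.07.

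The direction of member differences, none of them called, turned as follows on the log2 scale. For dystrophic against WT, Cd9 was 0.14 with the numbers exchanged. With title series as covariate, Cd63 was 1.57, Cd81 0.46 and Cd82 2.31, and Cd81 was 0.43 in the permutation test. With each library left out, Cd63 ran from -2.41 to 0.86 (0.86 without WT replicate 1), Cd81 from -1.09 to 0.32 and Cd82 from -0.80 to 0.62. For hypertrophic against WT, Cd9 was -0.16 with the numbers exchanged and -0.60 in the 9 matching libraries. Cd37 was 0.38 with the numbers exchanged and 0.11 in the permutation test, and ran from -1.58 to 4.36 with each library left out (4.36 without WT replicate 2), as Cd63 did from -2.66 to 1.30. For hypertrophic against dystrophic, the exchange gave -0.30 for Cd9, -1.12 for Cd63, -0.12 for Cd151 and 0.16 for Cd53. Cd63 was -2.88 with the covariate and -7.15 in the 9 matching libraries, and Cd151 was -0.86 in the permutation test. With each library left out, Cd63 ran from -0.87 to 1.07, Cd81 from -0.86 to 0.24 and Cd151 from -0.22 to 1.15. Over its alternatives, the adjusted p of Cd9 ran from 0.108 to 1, and its value was 0.40 without hypertrophic replicate 3 and 1.13 without dystrophic replicate 6.

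In the exact permutation test of mean log2 CPM, Cd9 for hypertrophic against WT was -0.24 in the 9 matching libraries and -0.20 with the numbers exchanged. For hypertrophic against dystrophic, it was -0.083 in the higher title series and -0.049 with the numbers exchanged, and 0.76 to 1.26 with each library left out. Leaving out 1 library gave a range of 0.02 to 0.59 for hypertrophic against WT and -0.98 to -0.41 for dystrophic against WT. For libraries with reads, in percentage points, Cd37 in hypertrophic against WT was 16.7 at minimums of 5 and of 10 reads, and Cd63 in hypertrophic against dystrophic was -33.3 after sampling down and -16.7 with the numbers exchanged. In dystrophic against WT, Cd81, Cd151 and Cd37 ran from -16.7 to 33.3 with each library left out. Depth limits the zeros of WT replicate 1 most, where 3 reads are 110 CPM, and 3 WT libraries limit each comparison with WT.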
